A study of Mus musculus with 20 samples.

Results

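The genes described here encode the subunits of the NMDA receptor and 1 protein named for it, followed through cultured mouse cortical neurons in normoxia and under oxygen and glucose deprivation (OGD), with and without the circular RNA ciRS-7. Members were the rows whose gene symbol was Grin1, Grin2a, Grin2b, Grin2c, Grin2d, Grin3a or Grina. All 7 were measured, out of 14700 gene symbols over the 4 deposited tables, and 6 of them stood in every table. Grin2c was missing from the table that compares the genotypes in normoxia. Grina does not belong to the label as its protein is known: it encodes a membrane protein of the TMBIM family (also called Tmbim3) that was named for an association with the receptor and is not a channel subunit, so it is described apart.

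NMDA receptors are cation channels that open when glutamate and a co-agonist, glycine or D-serine, are bound while the membrane is depolarised, and they let calcium into the neuron. Every receptor contains the GluN1 protein made from Grin1, which binds the co-agonist. It is joined by GluN2 proteins made from Grin2a to Grin2d, which bind glutamate and set the kinetics, or by glycine-binding GluN3 proteins. Embryonic cortex is known for receptors rich in GluN2B, and GluN2A comes in as the cortex matures. Excess calcium entry through these receptors in ischemia is the textbook case of excitotoxic death.

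Primary cortical neurons were taken from mouse embryos at day 15, grown for 7 days and kept for 12 h under 1 of 2 conditions, per the labels' protocols. Normoxic medium held 25 mM glucose and 0.2 mM pyruvate at 5% CO2, and OGD medium had neither added, at 1% oxygen and 5% CO2. The genotype was wild type (WT) or ciRS-7 knockout (KO), which gave 4 groups (N_WT, OGD_WT, N_KO and OGD_KO) of 5 libraries each. The strain label C57BL/6N-Cdr1asem1Nikr was given to all 20 libraries, the wild-type ones included, and no Cre driver or transgene was named. The labels numbered the cultures but did not say that they came from separate animals, so p-values measure the spread between these samples, which may be technical. RNA was total RNA read with a strand-specific kit. Reads recovered here from the deposited values, summed over the genes kept in them, were 7073212 to 14766691 a library in normoxia and 7497334 to 16663326 under OGD. They are not the sequencing depth, which may be higher.

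The labels were checked first. Cdr1as, the ciRS-7 locus, had 700 to 1365 reads in the N_WT libraries and 5 to 16 in N_KO, and 545 to 1912 in OGD_WT and 2 to 14 in OGD_KO. All 10 genes of the deprivation list rose under OGD in both genotypes, with a median log2 fold change of 2.54 in WT and 2.30 in KO. Neuron markers were present in every library (Map2, Tubb3 and Stmn2 were the most abundant of 10), as were astrocyte markers, and 1 of 10 microglia markers was measured.

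The libraries of a group did not scatter alike. Among pairs of libraries of 1 group, the scatter over the sampling noise was 1.43 to 1.97 for the 4 pairs of replicates 1 and 3, which carry the batch labels 1, 2 or 3.2. It was 5.33 to 13.8 for the 24 pairs with 1 library of batch 3.1 or 3.3, and 13.2 to 27.1 for the 12 pairs with both. The ratio was above 1 in every pair, so none was counted as the same library. Each comparison of the members is therefore also given without batches 3.1 and 3.3, which leaves 2 libraries a group, a choice made after seeing the data.

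In normoxia Grin2b was the highest member per kilobase of merged exons, which are the union over all annotated transcripts of a gene. CPM are reads scaled by the library size that the deposited values imply, not by all reads. The mean level of Grin2b in N_WT was 46.5 CPM per kb ± 9.96 (SD, n = 5), against 16.7 ± 4.77 for Grin1 and 3.31 ± 0.779 for Grin2a. Grin3a was at 2.72 ± 0.781 CPM per kb, so its libraries overlapped those of Grin2a. Grin2d was at 0.585 ± 0.0556 and Grin2c at 0.113 ± 0.0562 CPM per kb. In the same libraries Grina was at 24.2 ± 2.82 CPM per kb, between Grin2b and Grin1. The order of the 7 genes by mean was the same in N_KO. The merged exons of Grin1 span 9700 bases and its longest coding transcript 4276, against 2067 and 1725 for Grina. For Grin2a these lengths are 17933 and 14634, and for Grin3a 12275 and 7491. The order of Grina and Grin1, and of Grin2a and Grin3a, therefore depends on the length used. Under OGD the means of Grina and Grin2b lay next to each other, at 29.0 and 28.1 CPM per kb in OGD_WT and 27.1 and 27.9 in OGD_KO.

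Under OGD the RNA of Grin1, Grin2a, Grin2b and Grin2d fell in both genotypes, by 32.8% to 49.4% on the library scaling of the deposited values, and that of Grin2c rose from a very low level. Grin3a fell by the test in KO and missed the threshold in WT, and Grina was not called in either. In WT 4 of 7 members were lower and 1 higher at an adjusted p under 0.05 (limma, Benjamini-Hochberg over the 14235 genes of the table), where 22.8% of all genes were lower, 21.6% higher and 44.3% called in either direction. In KO 5 of 7 were lower and 1 higher, over a background of 19.9% lower, 21% higher and 40.9% called among 14375 genes. The median log2 fold change of the 7 members was -0.62 in WT and -0.57 in KO, beside -0.03 and 0.0027 over all genes. The 5 libraries of each group did not overlap for 3 of 7 members in WT and for 2 of 7 in KO, beside 26.9% and 25.8% of all genes. These are relative levels in mixed cultures, in which fewer neurons and less RNA of a gene per neuron cannot be told apart. The library sizes behind them were above the recovered reads in every normoxic library and below them in every OGD library. In N_WT replicate 1 the size was 14497222 beside 13172891 reads, and in OGD_WT replicate 1 it was 15487071 beside 16663326. Changes per recovered read were not computed.

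**Figure D1:**
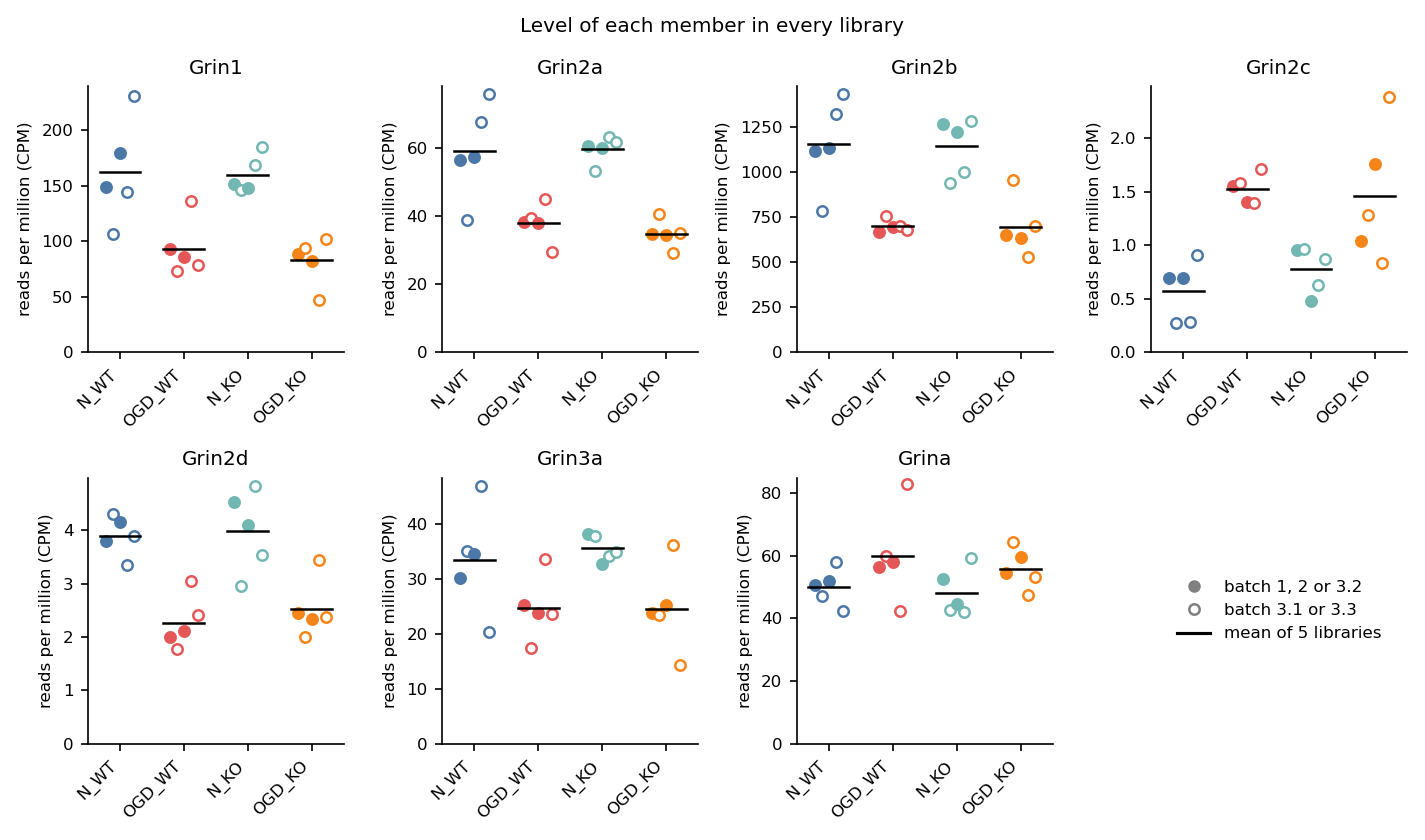
Level in CPM of each member in the 20 libraries by group, with the group mean as a bar; filled points are replicates 1 and 3 and open points the libraries of batches 3.1 and 3.3. Grin1, Grin2a, Grin2b and Grin2d sit lower under OGD in both genotypes, Grin2c sits higher, and the WT and KO points of each condition overlap.

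Grin1 encodes the subunit that every NMDA receptor needs (chr2:25291181-25319187, minus strand, GRCm38, GENCODE M21). In replicates 1 to 5 it was at 149, 106, 179, 144 and 230.5 CPM in N_WT. In OGD_WT it was at 92.9, 73.5, 85.5, 136 and 78.3 CPM, so that OGD_WT replicate 4 was the only deprived library above the lowest normoxic one. In N_KO the values were 152, 146, 148, 168 and 185 CPM. In OGD_KO they were 88.4, 93.6, 82.0, 47.2 and 102 CPM, all below every N_KO library. The log2 fold change was -0.79 in WT (SE 0.19, 95% interval -1.18 to -0.39, limma adjusted p 0.00222) and -0.98 in KO (SE 0.18, -1.37 to -0.60, adjusted p 0.000342). Exact two-sided permutation tests of the 5 against 5 libraries gave p = 0.0159 in WT and 0.00794 in KO, which is the smallest p this design allows. The antisense gene Grin1os overlaps 13.5% of the Grin1 exons, and whether the counting used strand is not given in the sources used here.

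The start of Grin1 is shown because Grin1 and Grin2c moved in opposite directions under OGD and both have a promoter in the RefSeq table (GRCm38.p6). It spans 300 bases around the gene start, chr2:25319138-25319437, and is printed on the minus strand from 5′ to 3′. Capitals mark ACGTG or GCGTG, the core that hypoxia-inducible factors are known to bind, and GGGCGG, the GC box, searched on both strands.
Grin1 promoter: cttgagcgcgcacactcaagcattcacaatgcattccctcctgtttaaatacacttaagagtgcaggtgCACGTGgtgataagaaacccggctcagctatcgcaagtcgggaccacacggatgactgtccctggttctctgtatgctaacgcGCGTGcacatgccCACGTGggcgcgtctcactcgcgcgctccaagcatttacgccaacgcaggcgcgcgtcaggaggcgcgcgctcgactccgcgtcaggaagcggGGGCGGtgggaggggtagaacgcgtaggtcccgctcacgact
The first motif matched 5 times, counting the palindrome CACGTG on each strand, and the GC box matched 1 time. Among 13374 RefSeq promoters of measured genes, 62.0% held ACGTG or GCGTG and 62.7% held GGGCGG. A match in these letters does not show that a factor binds there.

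Grin2b encodes the glutamate-binding subunit that dominates the embryonic forebrain (chr6:135713233-136173511, minus strand). In N_WT it was at 1116, 781, 1131, 1321 and 1429 CPM in replicates 1 to 5. In OGD_WT the values were 668, 752, 694, 699 and 676 CPM. All 5 deprived WT libraries were thus below the lowest normoxic one, and they lay within a much narrower range. The N_KO values were 1262, 939, 1220.2, 1000.5 and 1280.4 CPM. In OGD_KO the values were 651, 956, 631, 527 and 698 CPM, where only replicate 2 was above the lowest N_KO library. Grin2b fell by 38.6% in WT (log2 fold change -0.70, SE 0.17, 95% interval -1.05 to -0.36, limma adjusted p 0.00161) and fell by 39.7% in KO (-0.73, SE 0.19, -1.12 to -0.34, adjusted p 0.00416). The exact permutation p was 0.00794 in WT and 0.0159 in KO.

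Grin2a encodes the subunit that joins the receptor as the cortex matures (chr16:9567898-9995560, minus strand). Its levels in N_WT were 56.7, 38.9, 57.5, 67.8 and 76.1 CPM. Its levels in OGD_WT were 38.3, 39.4, 38.1, 45.2 and 29.5 CPM, and N_WT replicate 2 lay among them. N_KO held 60.7, 53.2, 60.2, 63.4 and 61.8 CPM. OGD_KO held 34.9, 40.6, 34.5, 29.2 and 35.2 CPM, all below every N_KO library. The log2 fold change was -0.62 in WT (SE 0.17, 95% interval -0.97 to -0.27, limma adjusted p 0.00551) and -0.77 in KO (SE 0.13, -1.05 to -0.49, adjusted p 0.000182). In the exact permutation test p was 0.0238 in WT and 0.00794 in KO. Of the 50-base words of Grin2a transcripts, 11.6% also occur in other genes, most of them in Gm7328, which is in none of the tables, so how the authors' counting placed such reads is uncertain.

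The proportion of Grin2a to Grin2b, the 2 main glutamate-binding subunits, did not pass a test of change in any comparison. The log2 ratio of Grin2a to Grin2b, which does not depend on how a library is scaled, was -4.28 ± 0.03 (SD, n = 5) in N_WT and -4.19 ± 0.20 in OGD_WT. It was -4.23 ± 0.18 in N_KO and -4.27 ± 0.16 in OGD_KO. The differences were 0.09 for OGD in WT, -0.04 for OGD in KO, 0.05 for KO in normoxia and -0.08 for KO under OGD. Exact two-sided permutation tests gave p = 0.421, 0.706, 0.627 and 0.452, each 0.706 after adjustment over these 4 comparisons, and the libraries overlapped in all 4.

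Grin2d encodes a subunit known from early development and from interneurons (chr7:45831883-45878378, minus strand). It was rare, with 14 to 64 reads a library. N_WT held 3.79, 4.30, 4.15, 3.34 and 3.90 CPM. OGD_WT held 2.00, 1.77, 2.11, 3.05 and 2.41 CPM, so the WT groups did not overlap. In KO the normoxic levels were 4.52, 2.95, 4.10, 4.83 and 3.53 CPM. The deprived KO levels were 2.45, 2.01, 2.35, 3.44 and 2.38 CPM, and replicate 4 overlapped the normoxic range. Grin2d fell by 38.6% in WT (log2 fold change -0.70, SE 0.17, limma adjusted p 0.00212) and fell by 32.8% in KO (-0.57, SE 0.18, adjusted p 0.0138), with an exact permutation p of 0.00794 and 0.0159. The antisense gene Gm45441 overlaps 9.66% of its exons, with the same limit as for Grin1.

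Grin2c encodes the subunit known from cerebellar granule cells and from glia (chr11:115249169-115267243, minus strand), and here it was close to the limit of detection. N_WT had 10, 4, 7, 3 and 7 reads in replicates 1 to 5, which is 0.690, 0.269, 0.691, 0.278 and 0.910 CPM. OGD_WT had 24, 17, 16, 11 and 17 reads, or 1.55, 1.58, 1.41, 1.40 and 1.71 CPM, all above every N_WT library. N_KO had 11, 14, 4, 6 and 14 reads, or 0.956, 0.962, 0.482, 0.631 and 0.867 CPM. OGD_KO had 14, 16, 24, 7 and 14 reads, or 1.04, 1.28, 1.76, 0.832 and 2.38 CPM, and replicate 4 lay within the normoxic range. The log2 fold change was 1.03 in WT (SE 0.22, 95% interval 0.58 to 1.48, limma adjusted p 0.000594, exact permutation p 0.00794) and 0.60 in KO (SE 0.23, 0.13 to 1.08, adjusted p 0.0391, exact permutation p 0.0397).

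The rise of Grin2c has limits of its own. It stood only in tables that contain an OGD group, where it is higher, so a filter on low values may have let it in through that group, and its presence there is no independent support. The KO call was lost when replicate 2, 3 or 5 of OGD_KO or replicate 3 or 4 of N_KO was left out (adjusted p 0.0552 to 0.107), and with the culture number as a block (adjusted p 0.0778). The size depended on the count added before taking logs: the KO log2 fold change was 0.82 with 0.5 added and 0.60 with 5 added, and limma voom, which works on the reads, gave 1.55 in WT.

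The start of Grin2c is shown for comparison with that of Grin1, with the same motifs in capitals (chr11:115267194-115267493, minus strand, GRCm38.p6, RefSeq).
Grin2c promoter: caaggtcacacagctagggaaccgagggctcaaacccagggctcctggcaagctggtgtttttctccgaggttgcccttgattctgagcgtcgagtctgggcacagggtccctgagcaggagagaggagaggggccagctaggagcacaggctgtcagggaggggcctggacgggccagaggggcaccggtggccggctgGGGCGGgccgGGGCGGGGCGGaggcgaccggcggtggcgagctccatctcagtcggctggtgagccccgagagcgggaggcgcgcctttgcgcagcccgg
It held no ACGTG or GCGTG and 3 GC boxes, 2 of which overlap. Its GC content was 70%, against 60.7% for the Grin1 start and a median of 61.3% over the 13374 promoters. The RefSeq promoter of Grin2d (chr7:45866632-45866931, minus strand) held 0 matches of ACGTG or GCGTG and 0 GC boxes. It lies inside the GENCODE gene model, which starts at 45878378 on the minus strand, and so is not the start of that model. A link between these motifs and the changes of the members was not tested.

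Grin3a encodes the glycine-binding subunit that lowers calcium flow through receptors that contain it (chr4:49661611-49845744, minus strand). N_WT held 30.1, 35.2, 34.6, 46.8 and 20.3 CPM. OGD_WT held 25.3, 17.5, 23.8, 33.6 and 23.7 CPM, and the groups overlapped from both sides. N_KO held 38.2, 37.8, 32.8, 34.2 and 34.9 CPM. OGD_KO held 23.8, 23.5, 25.3, 36.2 and 14.3 CPM, and only replicate 4 reached into the normoxic range. In KO Grin3a fell by 32.9% (log2 fold change -0.57, SE 0.18, 95% interval -0.96 to -0.19, limma adjusted p 0.0182, exact permutation p 0.0317). In WT its log2 fold change was -0.41 (SE 0.19, -0.81 to -0.01, adjusted p 0.0905, exact permutation p 0.119), which did not pass. Without OGD_WT replicate 4 the WT value was -0.52 (adjusted p 0.0413), and without N_WT replicate 5 it was -0.57 (adjusted p 0.0101).

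Grina (chr15:76246764-76249904, plus strand), which is not a receptor subunit, did not follow the subunits. N_WT held 50.6, 47.3, 51.8, 58.1 and 42.3 CPM and OGD_WT 56.6, 60.1, 58.1, 42.3 and 83.0 CPM. N_KO held 52.5, 42.7, 44.5, 42.0 and 59.2 CPM and OGD_KO 54.6, 64.6, 59.7, 47.6 and 53.2 CPM. The groups overlapped in both genotypes. Its log2 fold change under OGD was 0.23 in WT (SE 0.16, 95% interval -0.11 to 0.57, limma adjusted p 0.262) and 0.22 in KO (SE 0.15, -0.08 to 0.53, adjusted p 0.229). Of its TMBIM relatives, 5 were measured: Tmbim1 rose (log2 fold change 1.72 in WT and 1.77 in KO), Faim2, the neuronal inhibitor of Fas-driven death, fell (-0.98 and -0.96), and Tmbim4 rose by the test in KO (0.50) with 0.19 in WT.

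**Figure D2:**
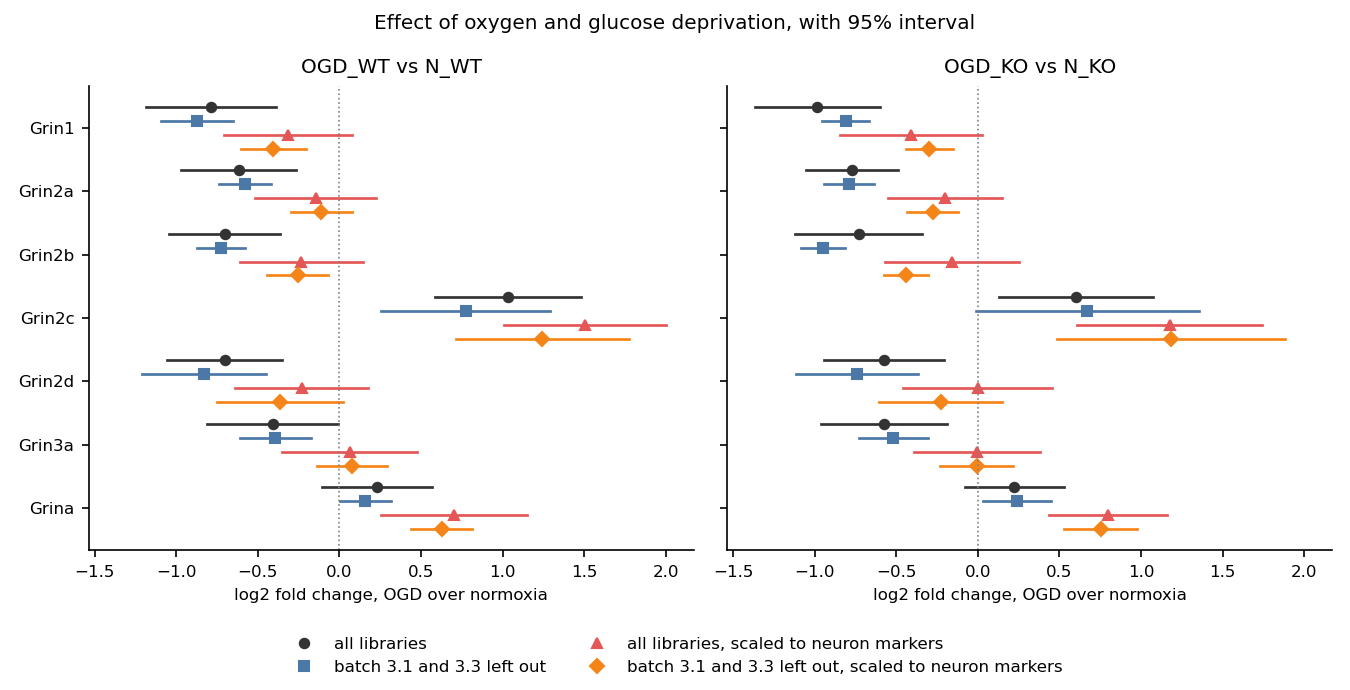
Log2 fold change of each member under OGD in WT and KO with its 95% interval, for all libraries, for replicates 1 and 3 alone, and for both sets after scaling each library to 10 neuron markers. The 4 falling subunits lie left of 0 in all libraries and in replicates 1 and 3 alone, and move toward 0 after the neuron scaling, while Grin2c stays right of 0.

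The falls were also called without batches 3.1 and 3.3, with smaller errors. The libraries kept were those that scattered least, so the smaller errors and p-values follow from that choice and are no independent support. In the 2 remaining libraries a group, Grin1 changed by -0.87 in WT (SE 0.09, limma adjusted p 0.000163) and -0.81 in KO (SE 0.06, adjusted p 9.38e-06). Grin2b changed by -0.73 (SE 0.06, adjusted p 6.3e-05) and -0.95 (SE 0.06, adjusted p 3.62e-06). Grin2a changed by -0.58 and -0.79, and Grin2d by -0.83 and -0.74, all called. Grin3a was called in both genotypes, at -0.39 in WT (adjusted p 0.00763) and -0.52 in KO (adjusted p 0.00125). Grin2c was 0.77 in WT (adjusted p 0.0184) and missed the threshold in KO (0.67, adjusted p 0.0846), while Grina passed in KO only (0.24, adjusted p 0.0478, against 0.16 and 0.078 in WT). Of all genes, 57.2% were called in WT and 56.8% in KO in these libraries. Within the cultures of batches 3.1, 3.2 and 3.3 alone, Grin1, Grin2a, Grin2b, Grin2c and Grin2d kept their calls in WT. In KO, where 3 cultures remained, Grin1 was the only member called (adjusted p 0.0085), and Grin2a was -0.76 (adjusted p 0.075) and Grin2b -0.58 (adjusted p 0.323).

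The makeup of the RNA moved with OGD in the same libraries. The 10 neuron markers summed to 4837 to 6216 CPM in N_WT and 3054 to 5808 in OGD_WT, and to 5480 to 5626 in N_KO and 3232 to 4732 in OGD_KO. Of the 10, 5 fell in WT and 6 in KO, where 22.8% and 19.9% of all genes were lower. All 7 glutamatergic neuron markers fell in both genotypes, with a median log2 fold change of -1.03 in WT and -0.92 in KO, and their sum went from 886.8 to 1042 CPM in N_WT to 462.4 to 514.9 in OGD_WT. Of 10 GABAergic neuron markers, 3 fell in each genotype (median -0.24 in WT and -0.20 in KO), which is near the share of all genes. The WT count was 1 without replicate 2 of OGD_WT or replicate 2 or 4 of N_WT, and the KO count 5 without replicate 5 of OGD_KO. Astrocyte markers rose for 6 of 9 in WT and 5 of 9 in KO, while Gfap fell in WT (-0.47, limma adjusted p 0.0434) and was at -0.34 in KO (adjusted p 0.123). In addition, 9 of 10 proliferation markers rose in both. Of all genes, 21.6% were higher in WT and 21% in KO. The mitochondrial ribosomal RNA Mt-Rnr2 took 10.07% to 16.44% of reads in normoxia and 13.78% to 31.99% under OGD. The part of these shifts in the members' falls was not tested.

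Set against the neuron markers, most of the falls did not pass the test. The 10 markers did not move alike under OGD, so their mean is not a uniform measure of neurons. Their log2 fold changes ran from -1.21 to -0.07 in WT and from -1.46 to 0.03 in KO. Scaling each library to its mean log2 CPM over the 10 neuron markers, a choice made after seeing the data, moved the median of all genes by 0.47 in WT and 0.57 in KO on the log2 scale. On that scale Grin1 was -0.32 in WT (limma adjusted p 0.167) and -0.41 in KO (adjusted p 0.0948), Grin2b -0.23 and -0.16, Grin2a -0.15 and -0.20, and Grin2d -0.23 and -0.00. No member was called lower, where 5.4% of genes were in WT and 3.37% in KO. Grin2c (1.504 in WT, 1.18 in KO) and Grina (0.70 and 0.80) were called higher, where 47.6% and 57.3% of all genes were. In WT Grin3a turned to 0.06. Without batches 3.1 and 3.3 on the same scale, 2 members were lower in WT (Grin1 -0.40, adjusted p 0.00205; Grin2b -0.26, adjusted p 0.0196), over 8.7% of genes. In KO 3 were lower (Grin1 -0.30, adjusted p 0.00203; Grin2a -0.28, adjusted p 0.00552; Grin2b -0.44, adjusted p 0.000128), over 7.1%. Grin2c and Grina were again higher in both genotypes, over 59.9% of genes in WT and 65.9% in KO.

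Within the Grin2 genes, whose products compete for the same places beside GluN1, Grin2b held nearly all of the length-scaled sum. Its mean share was 92.0% in N_WT, 91.0% in OGD_WT, 91.7% in N_KO and 91.2% in OGD_KO. Grin2a held 6.53%, 6.88%, 6.75% and 6.48%, and Grin2d 1.22%, 1.11%, 1.21% and 1.32% in the same order. The Grin2c share was 0.0961% to 0.289% in N_WT and 0.884% to 1.15% in OGD_WT, and 0.180% to 0.461% in N_KO and 0.617% to 1.53% in OGD_KO, without overlap in either genotype. That is no independent support for a rise of Grin2c, since the sum is mostly Grin2b, which fell, and the limits given for Grin2c apply. In CPM the KO groups overlapped for Grin2c, with OGD_KO replicate 4 at 0.832 and N_KO up to 0.962. By merged exon length the Grin2 sum was 3.10 times Grin1 in N_WT, 3.37 times in OGD_WT, 3.05 times in N_KO and 3.70 times in OGD_KO, and its libraries overlapped between all groups. The size of this ratio depends on the length used. The merged exons of Grin1 span 9700 bases and its longest coding transcript 4276, against 24842 and 24060 for Grin2b. It is therefore not read as an excess of Grin2 RNA over Grin1 RNA. RNA shares do not give the makeup of the receptors.

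**Figure D3:**
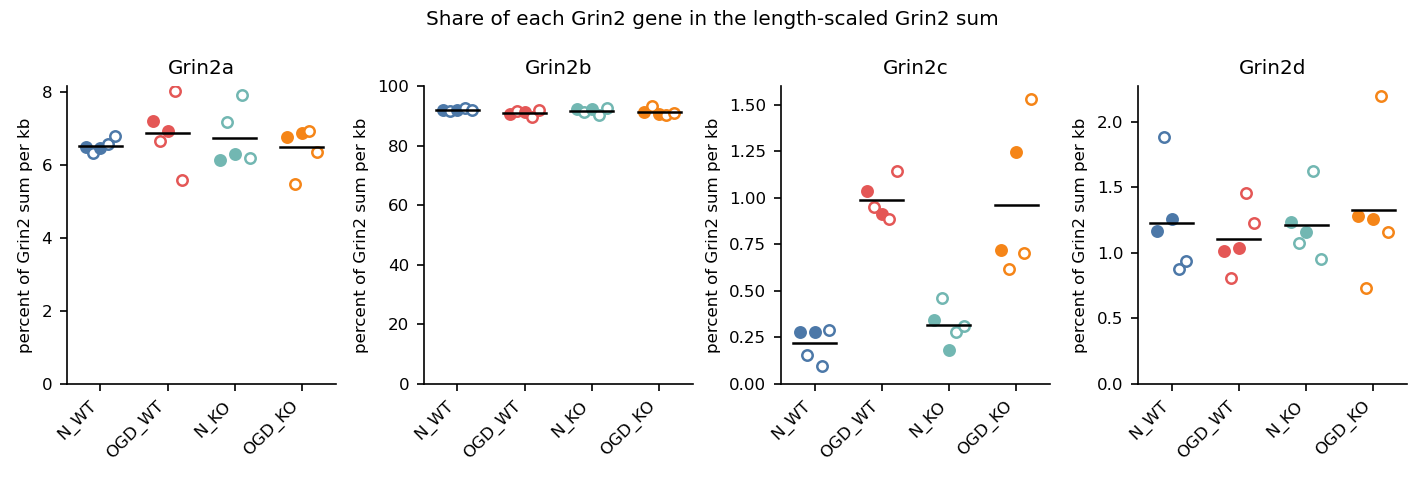
Share of Grin2a, Grin2b, Grin2c and Grin2d in their length-scaled sum (percent of CPM per kb) in each library, by group, with the group mean as a bar; filled points are replicates 1 and 3. Grin2b stays near 91% to 92%, and the Grin2c points of the OGD groups all lie above those of the normoxic groups. These are shares of a sum that fell with Grin2b, and the Grin2c levels in CPM overlap in KO.

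The knockout of ciRS-7 was compared next, within each condition. No member was called in either comparison, and none had an unadjusted p under 0.05. In normoxia the log2 fold change, KO over WT, was 0.03 for Grin1, 0.05 for Grin2a, 0.00 for Grin2b, 0.02 for Grin2d, 0.14 for Grin3a and -0.05 for Grina. Their 95% intervals lay within -0.34 to 0.50. Under OGD it was -0.19 for Grin1 (95% interval -0.63 to 0.25), -0.13 for Grin2a, -0.04 for Grin2b, -0.12 for Grin2c, 0.13 for Grin2d, -0.04 for Grin3a and -0.08 for Grina, with intervals within -0.63 to 0.53. Few genes of any kind were called by limma: 0.0353% in normoxia (5 of 14152) and 0.0282% under OGD (4 of 14185), and 1.81% and 1.78% had an unadjusted p under 0.05. The libraries of the genotypes overlapped for all 6 members in normoxia and all 7 under OGD, where 0.325% and 0.345% of all genes did not overlap, so the members were like nearly all genes in this. A miss of the threshold does not show that the genotypes were alike, and the intervals give the sizes that these libraries leave. Batch label 3.2 occurs only in WT libraries and batch label 2 only in KO libraries. Genotype and batch therefore cannot be fully told apart in these comparisons.

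Without batches 3.1 and 3.3 the intervals were narrower for most members and again none was called, where 0.0565% of genes were in normoxia and 0.113% under OGD. The libraries kept were those that scattered least. The WT libraries kept carry the batch labels 1 and 3.2 and the KO libraries 1 and 2, so genotype and batch cannot be fully told apart. Sizes were at most 0.15 in normoxia and 0.19 under OGD, and the lowest adjusted p was 0.802 and 0.549. For Grin2b, the most abundant subunit, the normoxic value in these libraries was 0.15 (SE 0.07, 95% interval -0.01 to 0.31) and the OGD value -0.09 (SE 0.06). The response to OGD was also compared between genotypes in 1 fit over the 20 libraries. The interaction (KO response minus WT response) was -0.21 for Grin1 (SE 0.31), -0.17 for Grin2a (SE 0.23), -0.04 for Grin2b (SE 0.26), 0.13 for Grin2d (SE 0.28), -0.18 for Grin3a (SE 0.32) and -0.02 for Grina (SE 0.23). None of the 6 members in all 4 tables was called and none had an unadjusted p under 0.05, beside 0% and 0.738% of 13688 genes (0 and 101 by limma). The Grin3a response was thus not shown to differ between the genotypes, and for Grin2c that difference was not tested.

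**Figure D4:**
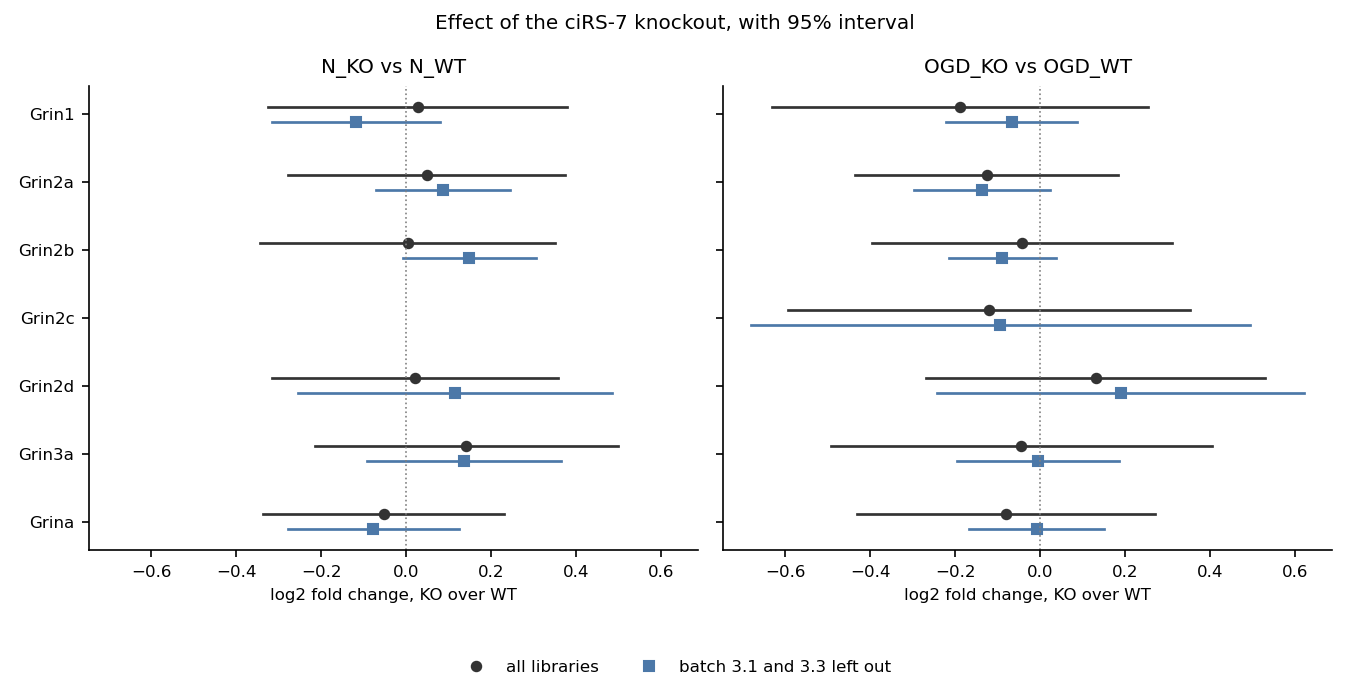
Log2 fold change of each member, KO over WT, in normoxia and under OGD with its 95% interval, for all libraries and for replicates 1 and 3 alone. Every interval crosses 0 and no value is beyond 0.19 on either side; Grin2c is not in the normoxic table.

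Sequence matches to miR-7 are shown because ciRS-7 is known for its many binding sites for this miRNA. The mature miRNAs (RefSeq, GRCm38.p6) are given with the seed, bases 2 to 8, in capitals; miR-7a-5p lies at chr7:78888295-78888317 and miR-7b-5p at chr17:56243017-56243040, both on the plus strand, and they share the seed. The only 8-base site of the members is in the 3′ UTR of Grin2b (GENCODE M21, transcript Grin2b-201, UTR positions 4206 to 4213), printed with 10 bases on either side and the site in capitals.
mmu-miR-7a-5p: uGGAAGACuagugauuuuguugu
mmu-miR-7b-5p: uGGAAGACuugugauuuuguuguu
Grin2b site: cactcacccaGTCTTCCAtggccatcag
Sites of 7 bases or more numbered 6 in Grin2a, 5 in Grin2b, 1 in Grin2c and 1 in Grina, and 0 in Grin1, Grin2d and Grin3a. The 3′ UTRs of Grin2a and Grin2b are long, at 9929 and 18865 bases against a median of 1309. Of 12321 measured genes with a 3′ UTR, 4.4% held an 8-base site and 27.4% a 7-base site. Grin2b, with the 8-base site, differed between KO and WT by 0.00 in normoxia and -0.04 under OGD on the log2 scale, each within its error in all libraries. Without batches 3.1 and 3.3 the differences were 0.15 (SE 0.07) and -0.09 (SE 0.06), neither of them called. A site in the letters does not show that the miRNA acts there.

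Other genes of the receptor's pathway moved under OGD in both directions. Their counts are read against the shares of all genes given above: 22.8% lower, 21.6% higher and 44.3% called in WT, and 19.9%, 21% and 40.9% in KO. Of 11 measured genes for the supply and uptake of the co-agonists, 7 rose and 3 fell in WT, with a median log2 fold change of 0.44, and 6 rose and 3 fell in KO (median 0.55). Phgdh, the first enzyme of serine synthesis, rose by 1.01 in WT (SE 0.16) and 1.15 in KO (SE 0.15). The serine hydroxymethyltransferases that make glycine rose too, Shmt1 by 0.87 and 0.75 and Shmt2 by 0.83 and 0.76. Slc7a10, a transporter of D-serine and glycine, fell, with log2 fold changes of -0.80 and -0.67.

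Genes that carry subunits to the membrane or hold them there were counted next. Of 13 measured transport and turnover genes, 7 fell and 0 rose in each genotype (median -0.68 in WT and -0.57 in KO). Kif17, the motor that carries GluN2B along dendrites, had -1.19 (SE 0.22) and -1.15 (SE 0.19), Pacsin1 -1.04 and -0.98, Apba1 -0.92 and -0.91, and the receptor kinase Ephb2 -0.73 and -0.77. Of 16 postsynaptic scaffold genes, 4 fell and 1 rose in each genotype (median -0.23 and -0.25), so that the lower count was near the share of all genes and the called count below it. The KO count of 5 was 3 without replicate 3 or 4 of OGD_KO or replicate 1, 3 or 5 of N_KO. Dlg2 (PSD-93) fell, at -0.85 and -0.99, Dlg3 (SAP102) at -0.64 and -0.61 and Shank3 at -0.53 and -0.45, while Dlg1 (SAP97) rose by 0.65 and 0.60. In none of these lists was a gene called between the genotypes in either condition.

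Of 21 kinases and phosphatases that act on the receptor, 9 fell and 0 rose in WT and 8 fell in KO (median -0.36 in each). The number called was near the share of all genes, and the calls were to the lower side. Ptk2b (Pyk2) had -1.20 and -1.37, the protein kinase A subunit Prkaca -1.04 and -0.96, Camk2a, which binds GluN2B, -0.83 and -0.91, and the phosphatase Ptpn5 (STEP) -0.78 and -0.74. Among signalling and cell death partners, 5 of 15 fell and 1 rose in WT and 7 of 16 fell in KO, among them Rasgrf2 (-1.13 and -0.996), Calm2, a calmodulin gene (-0.65 and -0.74), and Nos1 (-0.59 and -0.62), which makes nitric oxide. That number of calls was again near the share of all genes. Of 13 transcription factors reported at Grin promoters, 6 rose and 2 fell in WT and 5 rose and 3 fell in KO, where the falls were near the share of all genes and the rises above it. Rest, a repressor of neuronal genes, rose by 1.17 and 0.94, Ezh2 by 0.80 and 0.85 and Sp1 by 0.78 and 0.86, while Tbr1, a factor of deep-layer glutamatergic neurons that was also counted among their markers, fell, at -1.03 and -0.90. Without batches 3.1 and 3.3 the called kinase and phosphatase genes were 18 of 21 in both genotypes, and the called scaffold genes 11 of 16, where more of all genes were called too. On the scale of the neuron markers the list medians turned above 0 for the scaffold (0.24 in WT and 0.33 in KO), the kinases and phosphatases (0.12 and 0.22) and the signalling partners (0.24 and 0.16). The transport and turnover list was then at -0.21 in WT and 0.002 in KO, and Shank3 in KO at 0.12. The part of the shift in cell markers in these lists was not tested.

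Across the 20 libraries the subunits fell into patterns that are given as description, since the libraries share their scaling, depth and OGD response. Grin1, Grin2a and Grin2b ran together: Pearson's r of log2 CPM was 0.922 for Grin1 with Grin2a, 0.94 for Grin2a with Grin2b and 0.87 for Grin1 with Grin2b, and 0.75, 0.794 and 0.597 within groups. Grin2d followed Grin1 across all libraries (0.633) but not within groups (-0.0856), and Grin3a followed Grin1 little (0.318, and -0.376 within groups). Over all libraries Grina ran against Grin1, Grin2a, Grin2b, Grin2d and Grin3a, at -0.602 to -0.245, but within groups its r with Grin2b was 0.324; Grin2c was not among the genes compared. Among 12681 other genes the ones most like Grin1 were Pcsk5 (0.953), Usp13 and Adam23, those most like Grin2a were Brsk2 (0.961), Exoc6 and Slc7a4, and those most like Grin2b were Gas7 (0.941), Mef2c and Inafm1. Grin2d was nearest to Gm7292 (0.961), Agk and Agps, Grin3a to Actr2 (0.949), Armc1 and Itfg1, and Grina to Rps15a (0.917), Mccc1 and Dvl3.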

How the data were processed

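Total RNA of mouse cortical neuron cultures was sequenced in 20 libraries, 5 per group, and the authors deposited 4 tables of log2 CPM, 1 per comparison, with the genome build mm10 per the submitters' processing notes. The aligner, counting, annotation and filter are not given in the sources used here. In each gene and group the deposited lowest and highest log2 values had been drawn towards their neighbour (weights 0.6 and 0.4), which was inferred from the values and inverted here. At least 99.91% of values up to 500 reads then gave whole reads within 0.05, against 45.5% to 92.8% as deposited. Each comparison was fitted inside its table with limma 3.58.1 (R 4.3.3, lmFit and eBayes with trend, two-sided, Benjamini-Hochberg over all genes, called under 0.05). The interaction used all 20 libraries on a joint log2 scale with 2 reads added and the culture as a random block. The CPM printed are recovered reads over the joint library sizes, with no reads added. The log2 fold changes of the 4 comparisons come from deposited values with a floor, -1.27 log2 CPM for OGD in WT and -1.21 in KO. For Grin2c, which is near that floor, they are smaller than the printed CPM imply. The consensus correlation of a culture was -0.189, a negative value that widens the errors of the interaction. Without the block 0 genes were called as well. Levels per kb used the merged exon length of each gene in GENCODE M21, which the authors may not have used. Scripts were tested on simulated data.

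Genes named outside the members were, per list, up to 4 called in the wild-type OGD comparison with the largest change, the 3 most abundant of a marker list, and the 3 genes most correlated with a member. Some genes that this rule names are not reported here. The members and lists were chosen with earlier results of these data known, and the lists come from general knowledge. Alternatives that leave out batches 3.1 and 3.3, scale to neuron markers or do both were chosen after seeing the data. Same-numbered N and OGD libraries share a genotype number and a batch label, which may pair them; the correlation of their deviations from the group means was -0.79 to 0.0573, and no library correlated best with its own number. Fits with the number as a block are given where they change a call. Grin3b and UTR sites other than those of miR-7 were not analysed here.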

Additional observations from a re-analysis of the deposited data

Results flagged for a closer look

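In the OGD_KO group, replicate 4 stood apart for Grin1, at 5.565 log2 CPM where the other 4 libraries lay between 6.361 and 6.678; its gap was 0.715 of the group's range. Without that library the fall of Grin1 in KO was -0.79 on the log2 scale (SE 0.14, limma adjusted p 0.000385). Replicate 1 of OGD_KO stood apart for Cdr1as, at -1.624 log2 CPM where the others lay between 0.08166 and 0.7714, with a gap of 0.712 of the range; this rests on 2 reads. A gap above 0.71 singles out a library in a group of 5. Of the 36 groups of values examined about 1.8 are expected to pass by chance, at 1 in 20.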

How the results depend on the processing

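The OGD calls of Grin1, Grin2a, Grin2b and Grin2d held in both genotypes under every other prior count, scaling to size factors, voom, library weights, the replicate block and each left-out library. They did not all hold with neuron-marker scaling or, in KO, with batch 3 cultures alone, as given in the report; the cause was not tested. With the replicate block 5681 genes were called in WT and 4829 in KO, against 6313 and 5884, and the only member call it changed was Grin2c in KO (0.60, adjusted p 0.0778). Library weights added calls of Grina in WT (0.18, adjusted p 0.0303) and KO (0.30, adjusted p 0.00283) and of Grin3a in WT (-0.48, adjusted p 4.37e-05), and values as deposited added Grin3a in WT (-0.42, adjusted p 0.011). Calls over all genes numbered 10636 in WT and 9727 in KO with library weights, 9764 and 10499 with batches 3.1 and 3.3 left out and neuron scaling, and 2341 in KO with batch 3 cultures alone, where fewer libraries remained. Calls between genotypes in normoxia, 5 of all genes, became 9 with values as deposited, 187 with library weights, 3 at a mean log2 CPM of at least 1, 11 with a batch term, 2 in batch 3 cultures, 8 without batches 3.1 and 3.3 and 14 with that and neuron scaling. Under OGD, 4 became 12 as deposited, 1 with 0.5 added, 765 with weights, 17 with a batch term, 16 without batches 3.1 and 3.3 and 32 with that and neuron scaling; the interaction went from 0 to 1 without those batches. Small differences changed sign without any call. With neuron scaling and OGD in WT Grin3a became 0.062, or 0.076 without batches 3.1 and 3.3. In normoxia KO against WT, Grin2b became -0.022 as deposited, -0.030 with a batch term, -0.091 in batch 3 cultures and -0.036 with neuron scaling; Grin2d -0.0024 with voom, -0.069 in batch 3 cultures and -0.019 with neuron scaling. Grin1 became -0.15 with weights, -0.12 without batches 3.1 and 3.3, -0.013 with neuron scaling and -0.17 with both, and with a batch term Grin2a became -0.013 and Grina 0.084. Under OGD, Grin2c became 0.054 and Grin3a 0.045 with weights; with neuron scaling Grin3a became 0.037 (0.0029 without batches 3.1 and 3.3), Grin2b 0.038 and Grina 0.00044. The interaction became 0.057 for Grin1 and 0.076 for Grina without those batches. With each library left out in turn, calls ranged from 5250 to 6635 for OGD in WT, 4908 to 5930 in KO, 3 to 5 for the genotypes in normoxia, 1 to 7 under OGD and 0 to 0 for the interaction. The normoxic genotype differences ranged from -0.11 to 0.17 for Grin1, -0.095 to 0.15 for Grin2a, -0.13 to 0.088 for Grin2b, -0.049 to 0.12 for Grin2d, -0.023 to 0.28 for Grin3a and -0.13 to 0.0030 for Grina. Those under OGD ranged from -0.28 to 6.6e-05 for Grin1, -0.16 to 0.048 for Grin2b, -0.28 to 0.016 for Grin2c, -0.20 to 0.13 for Grin3a and -0.20 to 0.044 for Grina. The interaction ranged from -0.40 to 0.0031 for Grin1, -0.23 to 0.12 for Grin2b and -0.19 to 0.17 for Grina. The log2 ratio of Grin2a to Grin2b ranged from -0.020 to 0.079 for KO against WT in normoxia from -0.075 to 0.027 for OGD in KO, from 0.023 (without OGD_WT replicate 4) to 0.16 (without OGD_WT replicate 5) for OGD in WT, and from -0.16 (without OGD_WT replicate 5) to -0.015 (without OGD_KO replicate 2) under OGD; none passed, and the lowest adjusted p was 0.0635. Depth limits Grin2c, with 3 to 24 reads a library, and Grin2d, with 14 to 64.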
